A study of Mus musculus with 6 samples.

Results

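The gene family described here is that of the dual-specificity phosphatases (DUSPs) that switch off MAP kinases, in cells labelled as CD8+ T cells and treated with sphingosine-1-phosphate (S1P) or with vehicle. Its members were chosen by name as 10 Dusp genes, and all 10 were found among the 56941 Ensembl identifiers of the count table through GENCODE symbols. All 10 also had enough reads to be among the 13299 genes tested. Polyadenylated RNA of activated splenic T cells of B6 mice was sequenced in 2 groups of 3 samples each. The labels give purified naive CD8+ T cells as the starting cells, cultured for 3 days on plate-bound anti-CD3 and anti-CD28 with 100 U/ml IL-2. Either S1P at 5 µM or vehicle was added 24 h after activation, so that both groups shared the T cell receptor stimulus and the cytokine. The methods of the study name total splenocytes as another starting material of such cultures, without saying which was used for the sequenced RNA. The labels call the 3 samples of a group biological replicates and do not say how many mice gave the cells.

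MAP kinases become active when a threonine and a tyrosine of their activation loop are phosphorylated, and DUSPs remove both phosphates. Many DUSP genes are themselves transcribed in response to MAP kinase activity, which makes them feedback brakes on ERK, JNK and p38. In T cells the T cell receptor feeds into all of these kinases, and Dusp2 was first known as a phosphatase of activated lymphoid cells. The study followed the phosphorylation of p38, ERK and JNK after S1P exposure by western blot. It reported more phosphorylated p38 and no change for ERK and JNK. The comparison here asked whether transcripts of the phosphatases acting on these kinases differed between S1P-treated and vehicle-treated cells.

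The libraries held 13636095 to 17089831 counts with vehicle and 12048880 to 17384084 counts with S1P. S1P-treated replicate 2 stood apart in that 7.80% of its counts came from mitochondrially encoded genes, against 4.10% to 4.93% in the other 5 samples. The libraries were not those of CD8+ T cells alone. Cd8a had a mean TMM-normalized count of 3271 in vehicle-treated and 2056 in S1P-treated samples, while Cd4 had 2998 and 3220. All 7 B cell markers passed the filter on low counts, and their summed level was between 621 and 778 CPM (counts scaled to a common library total) in vehicle-treated and between 634 and 731 CPM in S1P-treated samples. The 6 markers of T cells and of CD8 summed to between 1091 and 1250 CPM and between 947 and 1052 CPM, with Cd8a and Cd8b1 lower after S1P and none of the 6 higher. Of 4 CD4 T cell markers, Zbtb7b and Cd40lg were higher after S1P, and the summed level was between 229 and 272 CPM and between 252 and 319 CPM. Of the B cell markers, Ebf1 was higher and Ms4a1 and Cd22 were lower. The 8 myeloid markers summed to between 80.1 and 104 CPM with vehicle and between 98.8 and 112 CPM with S1P. Most of that sum was Mpeg1, with mean normalized counts of 1304 and 1468, and Cd68 had 47.4 and 51.4, while Lyz2, Cd14 and Fcgr1 had at most 3 normalized counts in every sample. Neither Mpeg1 nor Cd68 was called. Erythroid markers summed to at most 1.02 CPM, and the summed level of NK cell markers was at most 4.21 CPM. The part of these cell types in the values of the Dusp genes was not tested, and in bulk RNA fewer cells of a type and less RNA per cell cannot be told apart.

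S1P treatment was accompanied by higher Dusp4, Dusp22 and Dusp16 and by lower Dusp2. Dusp4 rose most, 1.62-fold, and Dusp2 fell to 0.698 of its vehicle level. Of the 10 members, 3 were called higher, where 12.7% of all tested genes were, and 1 was called lower, where 10.4% of all tested genes were. The other 6 did not pass the test. Calls rest on edgeR's quasi-likelihood test, with the Benjamini-Hochberg adjusted p no higher than 0.05 and the size of the log2 fold change no smaller than 0.3. The median log2 fold change was 0.16 over the members and 0.01 over all tested genes, and the median size of the change was 0.27 and 0.23. Vehicle-treated and S1P-treated samples were fully separated in normalized count for 6 members (60%), where 45.6% of all tested genes were, with S1P above vehicle in 4, against a background of 23%, and below it in 2, against 22.6%. The shares of lower calls and of members with S1P below vehicle were thus close to the background, and 1 gene makes up 10% of the family. The count of higher members fell from 3 to 1 when replicate 3 of either group was left out, where Dusp4 alone was left.

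**Figure D1:**
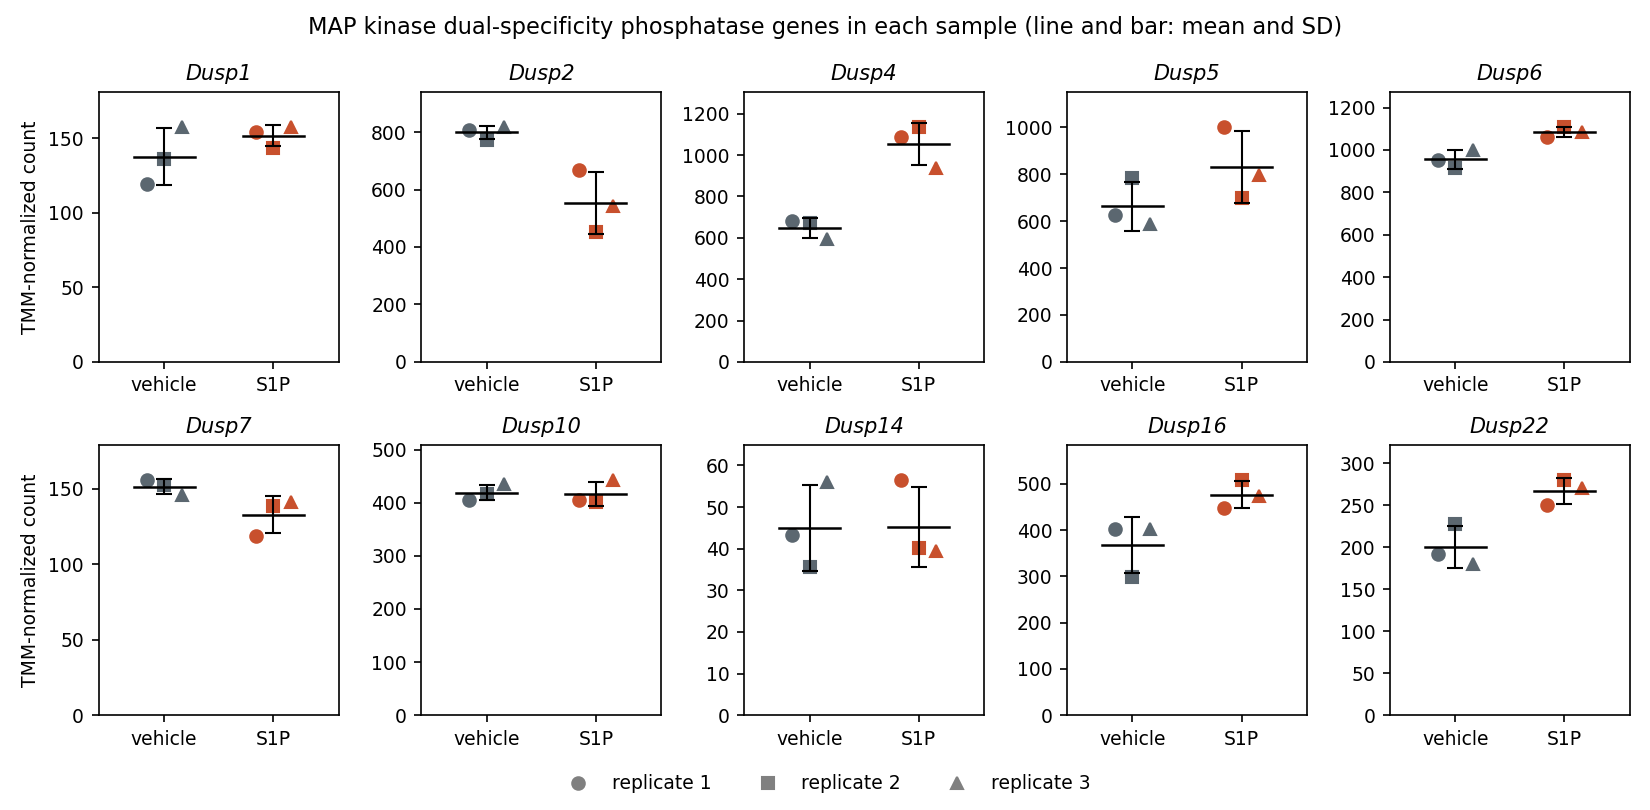
TMM-normalized counts of the 10 Dusp genes in each of the 3 vehicle-treated (grey) and 3 S1P-treated (orange) samples, with symbols for the replicate number and lines with bars for the mean and SD. Dusp4 lies between 592 and 682 in vehicle-treated and between 937 and 1134 in S1P-treated samples, and Dusp2 is the called gene that is lower after S1P.

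Levels of different genes were compared as RPKM, which are counts scaled to the length of the exons and to the TMM-adjusted depth. The inducible Dusp2, Dusp4 and Dusp5 and the ERK phosphatase gene Dusp6 were the most abundant. With the merged exons of all transcripts as length, together they held between 82.1% and 84.9% of the summed RPKM of the family in every sample. That share depends on the length used. With the canonical transcript, Dusp4 took 12.9% to 14.9% of the vehicle-treated sum, against 15.1% to 17.2% with merged exons. Dusp5 took 14.2% to 18.6%, against 17.3% to 22.3%, and the shares of Dusp2 and Dusp6 changed little. In vehicle-treated samples Dusp2 came first with an RPKM of 25.5 ± 0.741 (SD, n = 3), and Dusp6 followed with 19.1 ± 0.884 (SD, n = 3). Dusp5 had 18.2 ± 2.85 and Dusp4 had 15.3 ± 1.16 (SD, n = 3 each). Samples of Dusp2 and Dusp6 did not overlap, whereas Dusp6 overlapped Dusp5 and Dusp5 overlapped Dusp4. A 3.27-fold step in RPKM led from Dusp4 to Dusp10, with 4.68 ± 0.163 (SD, n = 3). The size of this step depends on the length used. Dusp10 has 6081 merged exon bases and 3509 in its canonical transcript, and Dusp4 has 2877 and 2749. Mean normalized counts in vehicle-treated samples, without a correction for length, were 649 for Dusp4 and 419 for Dusp10. Dusp16, Dusp1, Dusp22 and Dusp7 lay close together with merged exon lengths, between 2.51 and 2.82, and each overlapped its neighbour in the order. Their canonical transcripts have 5219, 1990, 3227 and 3901 bases, against 8841, 3324, 5319 and 4097 merged exon bases. With canonical lengths Dusp7 thus lies further below the others. Dusp14 was lowest with 0.578 ± 0.131 (SD, n = 3).

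After S1P, Dusp2 moved from the first to the last place of these 4 genes, and the place of Dusp4 depended on the gene length used. With merged exon lengths Dusp4 came first with an RPKM of 24.8 ± 2.42, and Dusp2 came last of the 4 with 17.7 ± 3.45 (SD, n = 3 each). With the length of the canonical transcript, Dusp6 and Dusp4 had the same mean to 3 digits, 26.0, and Dusp2 was again last with 21.6. Neighbours in the order Dusp4, Dusp5, Dusp6 and Dusp2 overlapped. The S1P-treated samples of Dusp4 and Dusp2 did not overlap with merged exon lengths (lowest Dusp4 22.1, highest Dusp2 21.3) and overlapped with canonical lengths (23.1 and 26.1). The summed RPKM of the family was between 92.7 and 95.8 in vehicle-treated and between 100.1 and 112 in S1P-treated samples. Dusp2 took 25.8% to 28.1% of that sum in vehicle-treated and 14.4% to 19.0% in S1P-treated samples. Dusp4 took 15.1% to 17.2% and 21.9% to 26.7%, and with canonical lengths 12.9% to 14.9% and 19.1% to 23.4%.

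**Figure D2:**
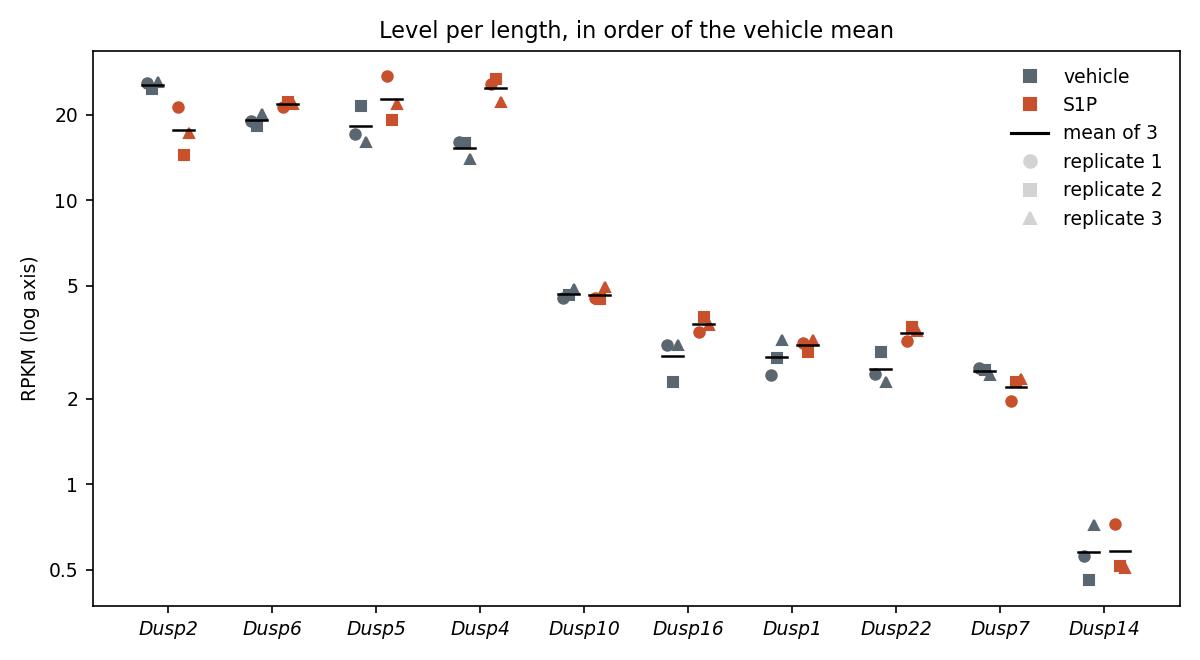
RPKM of each Dusp gene on a log axis, in the order of the vehicle mean, for vehicle-treated (grey) and S1P-treated (orange) samples, with a line for the mean of 3. Dusp2, Dusp6, Dusp5 and Dusp4 have means between 15.3 and 25.5 in vehicle-treated samples, and Dusp14 lies below 1 in all 6 samples.

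Among the inducible nuclear phosphatases, Dusp4 and Dusp2 were both called and went in opposite directions. Dusp4 (ENSMUSG00000031530, chr8:35274442-35287048 of GRCm39, plus strand) encodes a nuclear phosphatase that acts on ERK and JNK. Its normalized counts were 682, 672 and 592 in vehicle-treated replicates 1, 2 and 3 and 1086, 1134 and 937 in S1P-treated replicates 1, 2 and 3. Every S1P-treated sample was above every vehicle-treated sample. The log2 fold change was 0.70 (standard error 0.09, 95% interval 0.50 to 0.90, edgeR adjusted p = 0.000273). The call was kept in all 6 fits that each left out 1 library, with log2 fold changes from 0.63 to 0.77, and under all 8 other settings of filter, scaling, tool or block. It was lost when a log2 fold change of 1 was asked for.

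Dusp2 (ENSMUSG00000027368, chr2:127177957-127180296, plus strand) encodes a nuclear phosphatase of ERK and p38 that is found mainly in blood cells. Its normalized counts were 808, 773 and 817 in vehicle-treated and 668, 453 and 542 in S1P-treated samples. The groups did not overlap, and the S1P-treated samples were more spread, with an SD of 108 against 23.2 in vehicle-treated samples. The log2 fold change was -0.52 (standard error 0.12, 95% interval -0.77 to -0.27, edgeR adjusted p = 0.00679). The lowest value belonged to S1P-treated replicate 2, the library with the high mitochondrial share. Without it the log2 fold change was -0.39 and the call was kept (edgeR adjusted p = 0.00365). That library also held the highest S1P-treated counts of the other called members, Dusp4 (1134), Dusp16 (507) and Dusp22 (279). Without it Dusp4 (0.65) and Dusp22 (0.38) kept their calls and Dusp16 (0.32) lost its call. Annotated genes of the opposite strand cover 32.0% of the exon bases of Dusp2. They were not analysed here, and the strand setting of the counting is not given in the sources used here, so that reads of both strands cannot be told apart.

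Dusp5 (ENSMUSG00000034765, chr19:53517532-53530862, plus strand), whose product is a nuclear phosphatase of ERK, had counts of 625, 783 and 586 in vehicle-treated and 1000.2, 698 and 795 in S1P-treated samples. The groups overlapped, since vehicle-treated replicate 2 was above S1P-treated replicate 2. The estimate of 0.33 in log2 fold change (standard error 0.13, 95% interval 0.04 to 0.63) did not pass the adjusted p (edgeR, 0.0847). Dusp5 was called when replicate 2 of either group was left out (0.46 with edgeR adjusted p = 0.0433 for vehicle, 0.45 with edgeR adjusted p = 0.00980 for S1P) and without a filter on low counts (0.31, edgeR adjusted p = 0.0179). Without S1P-treated replicate 1, which had the highest count, it was 0.17 (edgeR adjusted p = 0.295). A gene of the opposite strand covers 22.4% of its exon bases and had at most 5 counts in any sample.

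Dusp1 (ENSMUSG00000024190, chr17:26724564-26781102, minus strand) encodes the best known of the immediate early phosphatases, with a preference for p38 and JNK. It was among the lower members by RPKM at this time, with normalized counts of 119, 136 and 157 in vehicle-treated and 154, 144 and 157 in S1P-treated samples. The groups overlapped, and the log2 fold change of 0.15 had a 95% interval from -0.15 to 0.44 (edgeR adjusted p = 0.442). Without vehicle-treated replicate 1 it was 0.04 and without vehicle-treated replicate 3 it was 0.25, not called in either fit. A change of the size seen for Dusp4 lay outside that interval, whereas one of 0.3 lay within it.

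Promoter sequence is shown for the 4 inducible genes, because Dusp4 and Dusp2 moved in opposite directions and Dusp1 and Dusp5 hold motifs of signal-driven transcription. Windows from 250 bases before to 50 bases after the start of the canonical transcript were searched on both strands in GRCm39, for 21757 protein-coding genes. The cAMP response element (CRE, TGACGTCA) was present in the window of Dusp1 alone among the members and in 2.45% of all windows. The half-site TGACG, which the CRE contains, was present in Dusp1, Dusp4, Dusp5 and Dusp16 and in 22.6% of all windows. The CArG box, the core of the serum response element, was present in Dusp5, where 2 copies lie at -38 to -29 and -28 to -19 from the start, and in 1.54% of all windows. No member had an AP-1 motif (TGANTCA) or the C/EBP-ATF response element (CARE, TGATGNAAT), which were present in 7.15% and 0.896% of all windows. Capitals mark a CRE, a CRE half-site (TGACG, or CGTCA where it lies on the other strand) or a CArG box in the 150 bases before each start, written 5′ to 3′ on the strand of the gene.
Dusp4, chr8:35274292-35274441, plus strand: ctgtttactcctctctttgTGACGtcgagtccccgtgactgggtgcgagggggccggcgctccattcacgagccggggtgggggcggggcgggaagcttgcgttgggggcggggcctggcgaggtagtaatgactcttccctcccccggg
Dusp2, chr2:127177807-127177956, plus strand: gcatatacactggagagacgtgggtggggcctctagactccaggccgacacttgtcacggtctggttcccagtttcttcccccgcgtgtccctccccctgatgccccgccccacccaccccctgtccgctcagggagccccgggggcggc
Dusp5, chr19:53517382-53517531, plus strand: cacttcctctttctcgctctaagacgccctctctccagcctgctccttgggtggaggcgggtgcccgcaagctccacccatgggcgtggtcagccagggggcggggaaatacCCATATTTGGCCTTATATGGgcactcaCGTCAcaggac
Dusp1, chr17:26727494-26727643, minus strand: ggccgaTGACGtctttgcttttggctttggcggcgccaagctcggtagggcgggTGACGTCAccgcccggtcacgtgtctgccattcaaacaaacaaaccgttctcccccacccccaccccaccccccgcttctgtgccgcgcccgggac

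The called pair differed in this stretch in that Dusp4 holds a half-site at -131 to -127 and Dusp2 holds none of the capitalised motifs. In the whole window, Dusp2 holds an EGR motif (GCGNGGGCG) at 25 to 33 after the start and Dusp4 holds none. That motif was present in Dusp2, Dusp10 and Dusp16 and in 6.22% of all windows. Dusp2 and Dusp4 share the GC box (GGGCGG), which was present in 8 of the 10 members and in 42.5% of all windows. These matches describe the letters of the windows, and no binding was measured in these files.

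Neither gene for the cytoplasmic ERK phosphatases was called. Dusp6 (ENSMUSG00000019960, chr10:99086564-99103361, plus strand), a target and brake of ERK, had counts of 952, 913 and 1002 in vehicle-treated and 1061, 1107 and 1087 in S1P-treated samples. Every S1P-treated sample was above every vehicle-treated sample, yet the difference was small, with a log2 fold change of 0.18 (standard error 0.07, 95% interval 0.03 to 0.33, edgeR adjusted p = 0.0656). It was not called in any of the 6 fits without 1 library. Genes of the opposite strand cover 23.0% of its exon bases and had at most 4 counts each in any sample. Dusp7 (ENSMUSG00000053716, chr9:106245143-106252923, plus strand), a close relative of Dusp6, had counts of 156, 152 and 146 in vehicle-treated and 119, 138 and 141 in S1P-treated samples. Its S1P-treated samples were all below the vehicle-treated samples, and the log2 fold change of -0.20 (95% interval -0.47 to 0.07) did not pass (edgeR adjusted p = 0.257). It was -0.11 without S1P-treated replicate 1, which had the lowest count.

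Of the phosphatases of JNK and p38, Dusp16 was called and Dusp10 was not. Dusp16 (ENSMUSG00000030203, chr6:134692431-134784241, minus strand) had counts of 403, 298 and 403 in vehicle-treated and 448, 507 and 474 in S1P-treated samples. All S1P-treated samples were above all vehicle-treated samples, and vehicle-treated replicate 2 was lower than the others. The log2 fold change was 0.36 (standard error 0.12, 95% interval 0.11 to 0.62, edgeR adjusted p = 0.0353). Without vehicle-treated replicate 2 it was 0.24 and the call was lost (edgeR adjusted p = 0.122). The call was also lost without vehicle-treated replicate 3 (0.43, edgeR adjusted p = 0.0518), without S1P-treated replicate 2 (0.32, edgeR adjusted p = 0.0512) and without S1P-treated replicate 3 (0.36, edgeR adjusted p = 0.0964).

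Dusp10 (ENSMUSG00000039384, chr1:183745499-183807842, plus strand) had counts of 406, 416 and 435 in vehicle-treated and 405, 402 and 442 in S1P-treated samples. The groups overlapped almost completely. The log2 fold change of -0.01 had a 95% interval from -0.19 to 0.17, so that a change of 0.3 in either direction lay outside it (edgeR adjusted p = 0.942). Genes of the opposite strand cover 15.95% of its exon bases, and the one analysed here had 5 to 18 counts. After that of Dusp6, this was the narrowest interval of the family.

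The small atypical phosphatases lack the kinase-binding domain of the others. Dusp22 (ENSMUSG00000069255, chr13:30843872-30895218, plus strand), whose product acts in JNK signaling and on the T cell kinase Lck, had counts of 192, 228 and 180 in vehicle-treated and 250, 279 and 271 in S1P-treated samples. The groups did not overlap, and the log2 fold change was 0.41 (standard error 0.11, 95% interval 0.16 to 0.66, edgeR adjusted p = 0.0188). Leaving out vehicle-treated replicate 1 (0.38, edgeR adjusted p = 0.0789), vehicle-treated replicate 3 (0.34, edgeR adjusted p = 0.0925) or S1P-treated replicate 3 (0.39, edgeR adjusted p = 0.0640) ended the call. Dusp14 (ENSMUSG00000018648, chr11:83938521-83960087, minus strand), a brake on T cell receptor signaling, was counted 31 to 68 times per library. Its log2 fold change of 0.03 had a 95% interval from -0.48 to 0.54 (edgeR adjusted p = 0.941), and a change of the size seen for Dusp22 lay within that interval.

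**Figure D3:**
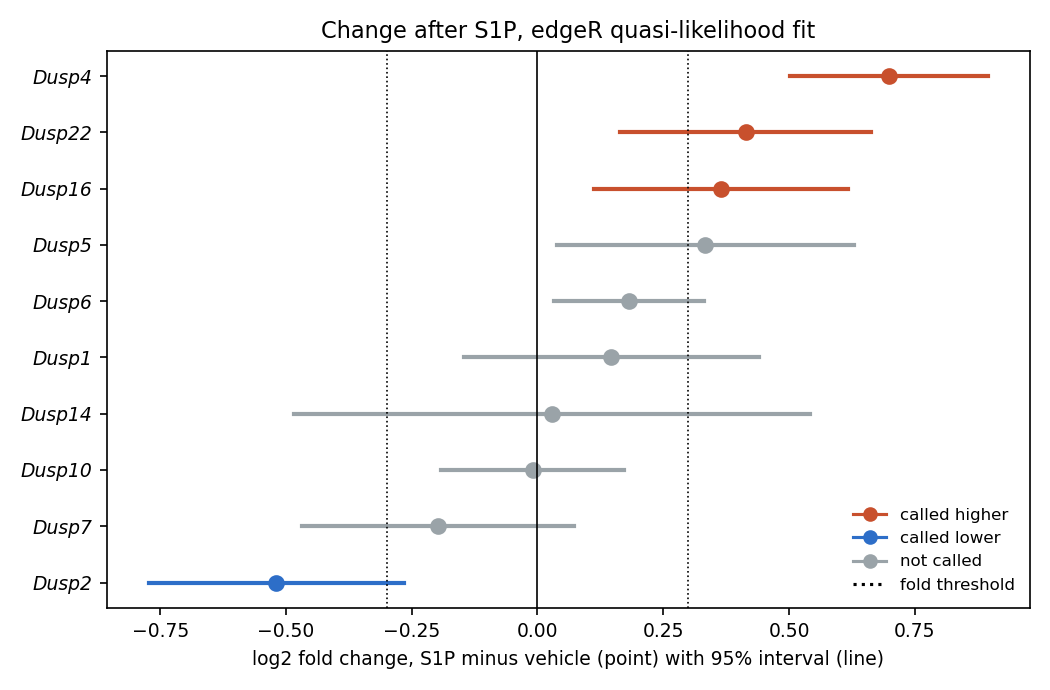
Log2 fold change of each Dusp gene, S1P minus vehicle, with its 95% interval from edgeR's quasi-likelihood fit of all 13299 tested genes, and dotted lines at the fold threshold of 0.3. Dusp4, Dusp22 and Dusp16 are called higher and Dusp2 lower, and the interval of Dusp14 is the widest.

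**Figure D4:**
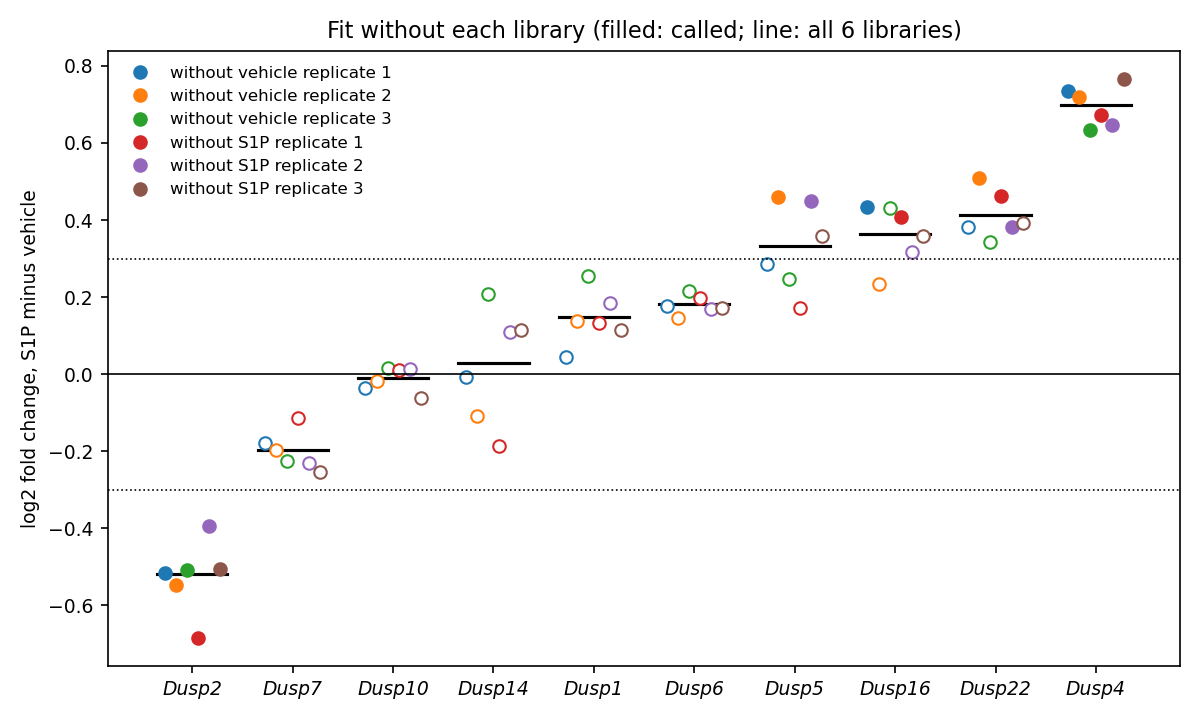
Log2 fold change of each Dusp gene in the 6 fits that each left out 1 library (points, filled where the gene was called) beside the value with all 6 libraries (line). All points of Dusp4 and Dusp2 are filled, and Dusp16, Dusp22 and Dusp5 have both filled and open points.

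Other genes of the pathway were read from lists, with the same test over all genes, of which 12.7% were called higher and 10.4% lower. The lists hold 7 to 13 tested genes each, and their counts are a description that sets no list apart from that background. Among 17 further DUSP and related genes, 8 could be tested, of which 1 was called lower and 0 higher. Dusp12, an atypical DUSP, had a mean normalized count of 126 ± 6.92 (SD, n = 3) with vehicle and 51.0 ± 15.1 (SD, n = 3) with S1P. It was lower by the test (log2 fold change -1.32, edgeR adjusted p = 0.000599), and this change exceeded that of every member in size. Of 7 tested genes for other phosphatases that act on MAP kinases, 1 was higher and 2 were lower. Ptpn7, a tyrosine phosphatase of ERK and p38 in blood cells, was at 2907 ± 85.6 with vehicle and 2205 ± 111 with S1P (SD, n = 3 each) and was lower by the test (log2 fold change -0.40, edgeR adjusted p = 0.00126). Ptpn5 was higher (0.37, edgeR adjusted p = 0.0104) and was no longer called when vehicle-treated replicate 2 was left out (0.33, edgeR adjusted p = 0.0505). Ppp2cb, a catalytic subunit of PP2A, was lower at -0.30 (edgeR adjusted p = 0.00610) and fell short of the fold threshold without S1P-treated replicate 1 (-0.29) or 2 (-0.27).

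Of the MAP kinases themselves, 8 of 10 were tested, 1 was called higher and none lower. Mapk3, which encodes ERK1, was higher in all S1P-treated samples, at 430, 454 and 403 against 304, 307 and 306 (log2 fold change 0.49, edgeR adjusted p = 0.00171). Of 12 tested feedback inhibitors of the Ras-ERK pathway, 2 were higher and 1 was lower. Errfi1, an inhibitor of EGF receptor family kinases, was higher (log2 fold change 0.93, edgeR adjusted p = 0.000595), and so was Spred2 (0.43, edgeR adjusted p = 0.000895). Rasal1, a Ras GTPase-activating protein gene, was lower (-0.91, edgeR adjusted p = 0.000563).

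Of 13 tested ERK-responsive transcripts, 3 were higher and none lower, and their median log2 fold change was -0.02. Ier3 had normalized counts of 41.6, 56.2 and 39.8 with vehicle and 143, 171 and 132 with S1P (log2 fold change 1.70, edgeR adjusted p = 8.69e-05). Fosl2, which encodes an AP-1 subunit, was higher by 1.42 in log2 fold change (edgeR adjusted p = 2.10e-05). Egr1, an immediate early transcription factor gene, was higher by 0.32 (edgeR adjusted p = 0.0120) and was no longer called when vehicle-treated replicate 1 was left out (0.31, edgeR adjusted p = 0.0579), nor without vehicle-treated replicate 2 (0.29, edgeR adjusted p = 0.0613) or S1P-treated replicate 2 (0.24). Of 11 tested genes downstream of p38 and ERK, 3 were higher and 1 was lower. Rps6ka5, a kinase activated by p38 and ERK, rose by 0.62 (edgeR adjusted p = 0.00373). The RNA-binding protein genes Zfp36 and Zfp36l1 rose by 0.49 and 0.44 (edgeR adjusted p = 0.00463 and 0.00142). Mknk2, a kinase of the translation factor eIF4E, was lower at -0.38 (edgeR adjusted p = 0.0140) and was no longer called without any 1 of vehicle-treated replicate 2 (-0.38, edgeR adjusted p = 0.0519), vehicle-treated replicate 3 (-0.39, edgeR adjusted p = 0.0508) or S1P-treated replicate 2 (-0.26).

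Dusp4 was the called member with the largest change, and the 3 tested genes whose log2 CPM followed it most closely over the 6 samples were Pde4dip (Pearson r = 0.9996), Pink1 (r = 0.998) and Zmiz1 (r = 0.997). All 3 were themselves called higher, with log2 fold changes of 0.63, 0.67 and 0.54. The 6 points fall into the treatment groups, so that these values describe a shared difference between groups in the same libraries.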

How the data were processed

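Counts of 6 samples, 3 per treatment, were used as deposited. From strand-specific libraries, the authors obtained counts with Trim Galore, STAR and featureCounts, and their processing notes name GRCm39. Which gene annotation was used, and how strand and multi-mapped reads were handled, are not given in the sources used here. Symbols, positions and exon lengths came from GENCODE vM39, which holds 56323 of 56941 identifiers. Genes kept by filterByExpr were scaled with TMM factors and tested with edgeR 4.0.16 (quasi-likelihood test, treatment as the only term, R 4.3.3), with Benjamini-Hochberg adjustment over 13299 genes. The standard error of a log2 fold change was taken as its size over the square root of F. Normalized counts were scaled to the mean TMM-adjusted library size, and RPKM used the merged exon bases of all transcripts. The fits were tested on simulated counts, and the outcome is not reported here. Alternatives were DESeq2 1.42.0, limma-voom (limma 3.58.1), other factors, filters and thresholds, a replicate block and the fit without each library, and the length of the canonical transcript was added after the data were seen.

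The members and lists were chosen with earlier results of these data known. All members are named, and from each list up to 4 called genes with the largest change. At most 2.19% of the 31-base words of a member were shared with other genes. P-values measure the spread between these samples only, which may be technical, since the labels name neither cultures nor animals.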

Additional observations from a re-analysis of the deposited data

How the results depend on the processing

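With a log2 fold change of at least 1 asked for, 0 members were higher and 0 lower, and 465 of all tested genes were called in place of 3071. Without each library in turn, the number of higher members lay between 1 and 3, that of lower members stayed at 1, and that of all called genes lay between 2119 and 3228. Under the 8 other settings of scaling, filter, tool or block, Dusp4, Dusp22 and Dusp2 kept their calls in all 8. Dusp16 lost its call with scaling by total count only (0.34, edgeR adjusted p = 0.0532), and the cause was not tested. Dusp10, not called, turned to 0.0133 with upper-quartile factors and ranged from -0.0617 to 0.0157 without each library, and Dusp14, not called, from -0.19 to 0.21. Ppp2cb was at -0.28 with upper-quartile factors, and Egr1 at 0.29 both with total count only and with no filter on low counts, each under the fold threshold. Scalings moved the median log2 fold change of all genes by at most 0.03 in size. Same-numbered samples did not deviate together from their group means (correlations of 0.12, -0.01 and 0.05), so that the numbers were not taken as a pairing, and with the replicate block 3 members were higher and 1 lower, as without it, and 3120 genes were called. The order of the members by RPKM in vehicle-treated samples was the same with the length of the canonical transcript. Without a correction for length, Dusp6 came before Dusp2, and Dusp22 and Dusp7 came before Dusp1. In S1P-treated samples Dusp6 came before Dusp4 under both of these alternatives, and without a correction for length Dusp16 came before Dusp10. Dusp14 had the lowest counts of the members, 31 to 68 per library.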

Other observations

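Both of the following were chosen after their values were seen and carry no test. The ratio of Dusp4 to Dusp2 counts within a library, which does not depend on the scaling of libraries, was 0.843, 0.870 and 0.725 in vehicle-treated replicates 1, 2 and 3 and 1.63, 2.51 and 1.73 in S1P-treated replicates 1, 2 and 3. Dusp2 was thus counted more often than Dusp4 in all 3 vehicle-treated samples and less often in all 3 S1P-treated samples. Dusp8, a relative of Dusp16 that acts on JNK and p38, had too few reads for the test. Its normalized counts were 3.40, 0 and 0.948 in vehicle-treated and 12.4, 12.9 and 5.79 in S1P-treated samples.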
